A study of Mus musculus with 8 samples.

Results

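The immunoglobulin genes of 8 mouse heart RNA-seq libraries are described here, that is, the heavy, kappa and lambda chain loci from which antibodies are made. Members were chosen by symbol: genes named Igh followed by a, d, m, g, e, V, v or J, and genes named Igkc, Igkv, Igkj, Iglc, Iglv or Iglj, leaving out Ighmbp2, a helicase gene whose name only begins like the family. A member also needed a value above 0 in at least 2 libraries, and all 182 genes with such a symbol met this, out of 25929 genes listed. They were 11 constant region genes, 165 variable segments (83 heavy, 79 kappa and 3 lambda chain segments) and 6 light chain joining segments. The heavy chain joining segments are spelled Ighj and fall outside these letters. Values are FPKM, fragments scaled to transcript length and to library depth, so that genes of different length can be compared.

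Wild-type C57BL/6 mice (WT) and littermates carrying the fat-1 transgene (Fat1, strain label Fat-1) underwent either transverse aortic constriction (TAC), which loads the left ventricle with pressure, or a sham operation that opened the chest without constriction. The transgene is a Caenorhabditis elegans n-3 fatty acid desaturase that turns n-6 into n-3 fatty acids, and the promoter driving it was not given in the sources used here. Mice were 3 months old at surgery. The groups are called WT-Sham and WT-TAC for the wild type, and Fat1-Sham and Fat1-TAC for the transgenic mice. Each of the 4 has 2 independent samples, labelled as ventricular, while the methods of the study speak of RNA from whole hearts. The comparison of TAC with sham asks what pressure overload changed, and that of Fat1-TAC with WT-TAC asks what endogenous n-3 fatty acids changed under the same load.

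An antibody is assembled from heavy chains and light chains. In each developing B cell a variable, a joining and, for heavy chains, a diversity segment are cut and joined in the DNA, and the joined variable exon is spliced to a constant region. The heavy chain constant region sets the isotype: Ighm encodes IgM, Ighd IgD, Ighg1, Ighg2b, Ighg2c and Ighg3 the IgG subclasses, and Igha IgA. B cells carry these transcripts at a modest level, while plasma cells, which secrete antibody, carry very large amounts, so a few such cells can be seen in a whole tissue. Heart muscle cells do not assemble these genes.

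The variable segments that led in the libraries with the most immunoglobulin RNA are shown first, because the set of segments used differed between hearts. Each sequence is the last 150 bases of the annotated transcript (GENCODE M21, GRCm38), read 5′ to 3′ on the coding strand, with the codons for tyrosine, then tyrosine or phenylalanine, then cysteine in capitals. This cysteine is the conserved one at the end of the variable framework.
Ighv1-22 (highest heavy chain segment in WT-TAC1): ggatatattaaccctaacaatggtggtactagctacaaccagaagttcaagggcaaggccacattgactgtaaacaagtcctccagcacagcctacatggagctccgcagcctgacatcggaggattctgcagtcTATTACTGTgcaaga
Ighv11-2 (highest heavy chain segment in WT-TAC2): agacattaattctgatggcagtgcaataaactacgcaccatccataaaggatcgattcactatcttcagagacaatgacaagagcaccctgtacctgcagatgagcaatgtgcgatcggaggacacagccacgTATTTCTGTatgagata
Ighv13-2 (highest heavy chain segment in Fat1-TAC2): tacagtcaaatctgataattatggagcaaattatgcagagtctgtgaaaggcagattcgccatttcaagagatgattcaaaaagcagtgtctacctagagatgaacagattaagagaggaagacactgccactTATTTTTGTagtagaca
Igkv5-43 (highest kappa chain segment in WT-TAC1): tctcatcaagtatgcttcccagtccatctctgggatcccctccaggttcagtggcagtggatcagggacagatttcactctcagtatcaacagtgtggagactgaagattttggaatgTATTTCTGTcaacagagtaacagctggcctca
Igkv14-126 (highest kappa chain segment in WT-TAC2): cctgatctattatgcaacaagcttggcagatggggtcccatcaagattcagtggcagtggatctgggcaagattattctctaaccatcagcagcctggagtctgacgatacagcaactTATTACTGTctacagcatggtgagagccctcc
Igkv10-96 (highest kappa chain segment in Fat1-TAC2): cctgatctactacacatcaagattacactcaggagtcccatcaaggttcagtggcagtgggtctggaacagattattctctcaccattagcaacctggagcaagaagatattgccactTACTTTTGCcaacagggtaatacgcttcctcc

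The heavy chain segments lie on the minus strand of chromosome 12, Ighv1-22 at 114746273 to 114746706, Ighv11-2 at 114048241 to 114048812 and Ighv13-2 at 114357759 to 114358218. The kappa segments lie on chromosome 6, Igkv5-43 at 69823355 to 69823943 (minus strand), Igkv14-126 at 67896172 to 67896642 (plus strand) and Igkv10-96 at 68631963 to 68632442 (minus strand). The 3-codon motif was searched on the coding strand only and in any frame. It was present in the last 150 bases of 158 of the 163 members annotated as functional variable segments (96.9%). The share was 2.96% for the longest transcripts of 49528 annotated genes. Members were searched at the end of the coding sequence, and these transcripts at their 3′ end, untranslated bases included. Between Ighv13-2 and Ighv11-2, 91 of the 150 bases were equal, and between Igkv14-126 and Igkv10-96, 108 were. Igkv5-43 and Igkv5-45 were identical over this stretch, so their reads cannot be told apart there.

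Libraries held 14163994 to 21218331 fragments, recovered from the steps of the FPKM values. Some libraries stood apart before any immunoglobulin gene is considered. The summed FPKM of 12 T cell and thymocyte genes was 3395 in WT-TAC1 and 2.12 to 9.42 in the other libraries. For 13 airway epithelium genes the sum reached 1690 (WT-TAC1), 4296 (WT-TAC2) and 51.9 (Fat1-Sham1), and the rest had 1.005 to 3.28. The heart muscle list was present throughout, with 26183 FPKM in WT-TAC1 and 48051 to 63414 FPKM in the others. Myh7, the myosin heavy chain that often increases with load, was at 28.9 and 47.3 FPKM in WT-Sham, 50.7 and 89.0 in WT-TAC, 31.1 and 30.5 in Fat1-Sham, and 76.0 and 120 in Fat1-TAC, without overlap between TAC and sham within a genotype. Nppa, which encodes atrial natriuretic peptide, was at 106 and 259 FPKM in WT-Sham, 299 and 241 in WT-TAC, 128 and 9.04 in Fat1-Sham, and 13.6 and 11.1 in Fat1-TAC, with overlap in both genotypes. Nppb, for brain natriuretic peptide, was at 175 to 418 FPKM in the sham hearts and 178 to 264 in the TAC hearts. These load genes were looked up after the immunoglobulin values had been seen.

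Immunoglobulin RNA was abundant in both WT-TAC hearts and in Fat1-TAC2, and scarce in all 4 sham hearts and in Fat1-TAC1. Fragments on the 182 genes numbered 406 and 477 in WT-Sham, 34027 and 13842 in WT-TAC, 501 and 339 in Fat1-Sham, and 519 and 12448 in Fat1-TAC. As a rate per 1e+06 fragments these were 28.7 and 22.5 in WT-Sham, 1716 and 771 in WT-TAC, 28.2 and 17.3 in Fat1-Sham, and 27.8 and 686 in Fat1-TAC. The 2 Fat1-TAC hearts therefore lay at opposite ends, with Fat1-TAC1 within the range of the sham hearts and Fat1-TAC2 close to WT-TAC2. In bulk tissue, fewer antibody-making cells and less immunoglobulin RNA per cell cannot be told apart.

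Both chains and both kinds of gene followed this order. The summed FPKM of the constant genes was 21.02 and 16.0 in WT-Sham, 1225 and 560 in WT-TAC, 20.7 and 12.8 in Fat1-Sham, and 20.6 and 507 in Fat1-TAC. The summed FPKM of the variable segments was 19.9 and 5.48 in WT-Sham, 1289 and 648 in WT-TAC, 13.4 and 7.32 in Fat1-Sham, and 11.6 and 581 in Fat1-TAC. On the log2 scale, the constant sum of WT-TAC exceeded that of WT-Sham by 5.49, and Fat1-TAC minus WT-TAC gave -3.02, with a pooled SD between the libraries of a group of 1.70 (4 residual degrees of freedom). The variable sum differed by 6.45 and -3.48 in the same comparisons, with a pooled SD of 2.15. The widest gap within a group was in Fat1-TAC, where the variable sum of Fat1-TAC2 was 49.95 times that of Fat1-TAC1.

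**Figure D1:**
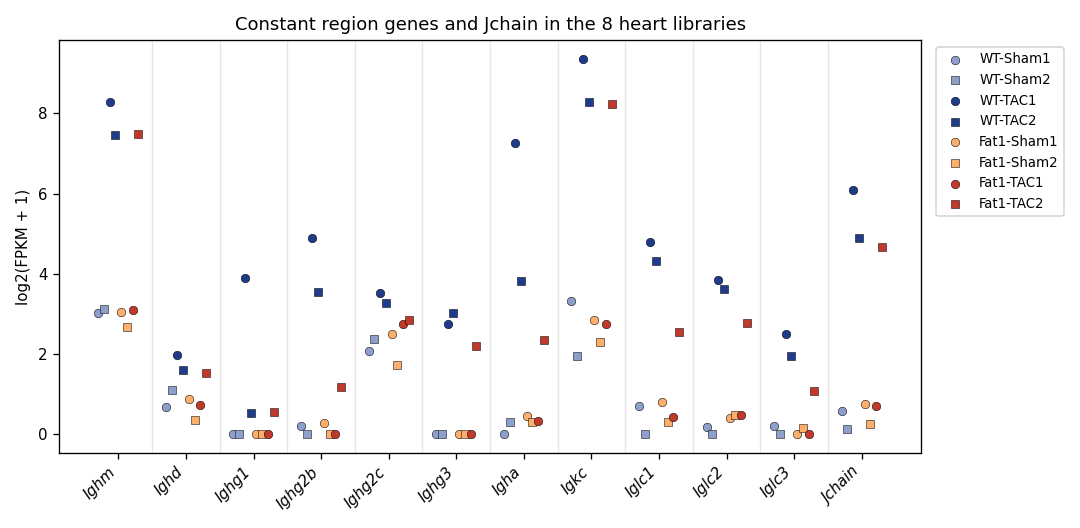
Level of each constant region gene and of Jchain, as log2(FPKM + 1), with 1 point per library coloured by group (circle, replicate 1; square, replicate 2). Igkc and Ighm stand highest in WT-TAC1, WT-TAC2 and Fat1-TAC2, while Fat1-TAC1 lies within the range of the 4 sham hearts for 9 of the 11 constant genes (all but Ighg2c and Iglc2) and for Jchain.

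Ighm, the constant gene of IgM (chromosome 12, 113418558 to 113422730, minus strand), was the highest heavy chain constant gene in every library. It was at 7.12 and 7.65 FPKM in WT-Sham, 309 and 176 in WT-TAC, 7.26 and 5.32 in Fat1-Sham, and 7.48 and 179 in Fat1-TAC. Ighd, the constant gene of IgD, which is carried mainly by resting B cells, was at 0.60 and 1.16 FPKM in WT-Sham, 2.90 and 2.01 in WT-TAC, 0.82 and 0.27 in Fat1-Sham, and 0.66 and 1.86 in Fat1-TAC. The ratio of Ighm to Ighd was thus 107 and 87.7 in WT-TAC and 96.0 in Fat1-TAC2, against 6.61 to 19.4 in the other hearts. IgM transcripts were far more abundant relative to IgD transcripts in the hearts that were rich in immunoglobulin.

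Igha, the constant gene of IgA, the isotype of mucosal secretions (chromosome 12, 113254830 to 113260236, minus strand), differed most of the constant genes between the immunoglobulin-rich hearts. It was at 0 and 0.23 FPKM in WT-Sham, 153 and 13.0 in WT-TAC, 0.37 and 0.22 in Fat1-Sham, and 0.26 and 4.09 in Fat1-TAC. WT-TAC1 therefore held more than the remaining hearts by a wide margin, and the ratio of Igha to Ighm was 0.50 in WT-TAC1, 0.074 in WT-TAC2 and 0.023 in Fat1-TAC2. Pigr, the receptor that carries polymeric IgA and IgM across epithelia, was at 4.98 and 10.04 FPKM in WT-TAC and at 0 to 0.16 in the other 6 libraries, with 0 in Fat1-TAC2.

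The IgG genes were lower than Ighm throughout. Ighg2b was at 0.15 and 0 FPKM in WT-Sham, 28.8 and 10.6 in WT-TAC, 0.21 and 0 in Fat1-Sham, and 0 and 1.26 in Fat1-TAC. Ighg3 was at 0 in all 4 sham hearts and in Fat1-TAC1, at 5.65 and 7.07 FPKM in WT-TAC and at 3.63 in Fat1-TAC2. Ighg1, at 0 in the same 5 libraries, reached 13.8 FPKM in WT-TAC1 but only 0.44 in WT-TAC2 and 0.46 in Fat1-TAC2. Against a floor of 3 fragments per library, the mean in WT-TAC was at least 63.0-fold higher than in WT-Sham for Ighg3 and at least 71.6-fold higher for Ighg1, the latter carried by WT-TAC1.

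Ighg2c, an IgG2 gene like Ighg2b, behaved unlike its neighbours. It was at 3.22 and 4.17 FPKM in WT-Sham, 10.4 and 8.62 in WT-TAC, 4.69 and 2.33 in Fat1-Sham, and 5.75 and 6.25 in Fat1-TAC. Its spread from lowest to highest heart was thus small beside that of Ighm or Igkc, and it kept a level in sham hearts where Ighg1 and Ighg3 had none. Of the 50-base windows of the Ighg2c transcripts, 5.66% also occurred in another gene, most often Ighg2b, while no window of Ighm, Igha, Ighd, Igkc or Iglc1 did.

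**Figure D2:**
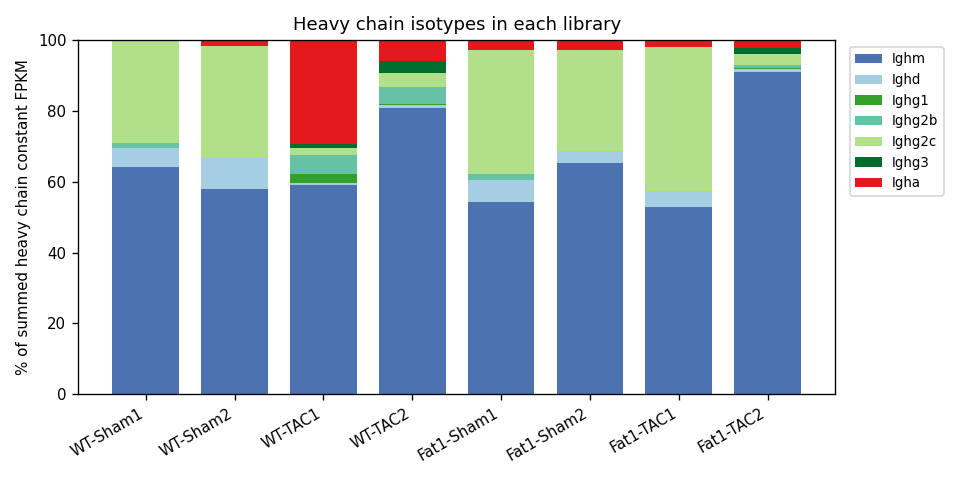
Share of each isotype in the summed FPKM of the 7 heavy chain constant genes, in percent, with 1 stacked bar per library. Ighm takes 59.0% in WT-TAC1, 80.8% in WT-TAC2 and 91.1% in Fat1-TAC2, with Igha at 29.3% in WT-TAC1, while Ighg2c takes 28.6 to 40.6% in the sham hearts and Fat1-TAC1.

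As shares of the summed heavy chain constant FPKM, Ighm took 59.0% in WT-TAC1, 80.8% in WT-TAC2 and 91.1% in Fat1-TAC2. Counted in fragments, the Ighm share was 56.3% (95% Wilson interval 55.6 to 57.1%) of 17366 fragments in WT-TAC1, 80.3% (79.3 to 81.3%) of 6281 in WT-TAC2 and 91.5% (90.7 to 92.2%) of 5654 in Fat1-TAC2, so the shares differed beyond counting error, which is all that these intervals cover. Igha took 29.3%, 5.97% and 2.08% of the FPKM in the same hearts. The IgG genes together took 11.2%, 12.3% and 5.92%. In the sham hearts and Fat1-TAC1 the shares rested on 229 to 403 fragments, with Ighm at 52.8 to 65.3% and Ighg2c at 28.6 to 40.6% of the FPKM.

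By group, the Ighm share was 69.9% ± 15.4 (SD, n = 2) for WT-TAC, compared with 71.9% ± 27.0 (SD, n = 2) for Fat1-TAC, a difference much smaller than the spread within either group. The Igha share was 17.6% ± 16.5 (SD, n = 2) for WT-TAC, compared with 1.98% ± 0.15 (SD, n = 2) for Fat1-TAC, again with WT-TAC1 far from WT-TAC2. With 2 hearts in each group a two-sided exact permutation test of a single share cannot go below p = 0.333, so no such test was made.

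Igkc, the only kappa constant gene (chromosome 6, 70726435 to 70726966, plus strand), had the highest mean FPKM of the members and was above Ighm in WT-Sham1, both WT-TAC hearts and Fat1-TAC2, and below it in the other 4. It was at 9.02 and 2.83 FPKM in WT-Sham, 656 and 309 in WT-TAC, 6.24 and 3.94 in Fat1-Sham, and 5.73 and 299 in Fat1-TAC. Iglc1, a lambda constant gene, was at 0.62 and 0 FPKM in WT-Sham, 26.5 and 18.9 in WT-TAC, 0.74 and 0.23 in Fat1-Sham, and 0.35 and 4.86 in Fat1-TAC. Kappa thus took 93.6% and 90.4% of the light chain constant FPKM in WT-TAC and 96.2% in Fat1-TAC2, the usual excess of kappa in mice. In fragments these shares were 94.3% (95% Wilson interval 93.7 to 94.8%), 91.2% (90.2 to 92.2%) and 96.5% (95.8 to 97.1%).

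Iglc2 and Iglc3, the other lambda constant genes, followed the same order of hearts. Iglc2 was at 13.4 and 11.2 FPKM in WT-TAC and 5.80 in Fat1-TAC2, Iglc3 at 4.69 and 2.83 in WT-TAC and 1.10 in Fat1-TAC2, and both at 0 to 0.40 elsewhere. Iglc2 was therefore the leading lambda constant gene in Fat1-TAC2 and Iglc1 in WT-TAC. Of their 50-base windows, 8.90% of Iglc2 and 10.7% of Iglc3 occurred in another gene, most often in each other.

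**Figure D3:**
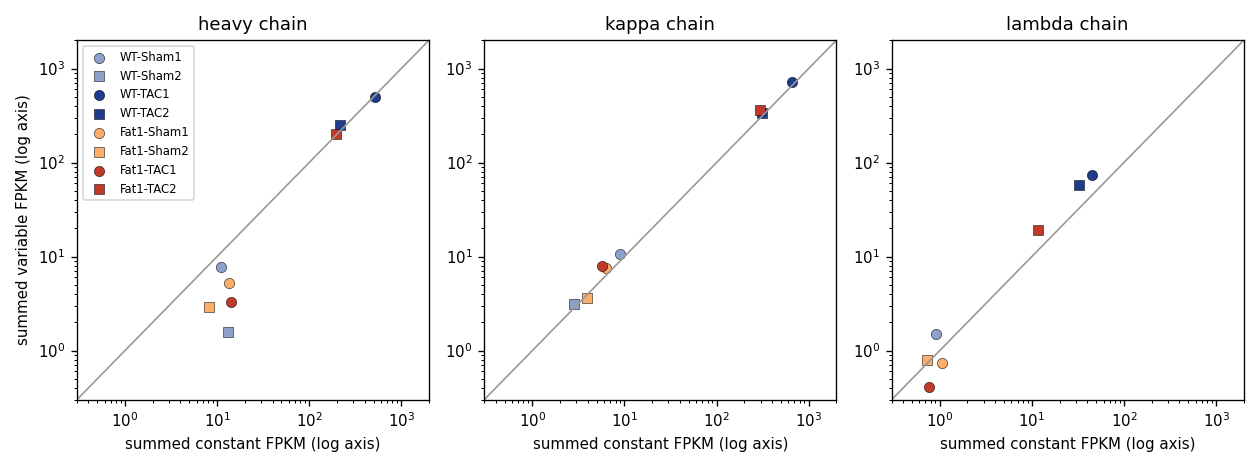
Summed FPKM of the variable segments (vertical, log axis) against that of the constant genes (horizontal, log axis) for heavy, kappa and lambda chains, with 1 point per library and a line of equal sums. The kappa points follow the line from scarce to rich hearts, while the heavy chain points of the sham hearts and Fat1-TAC1 lie below it; WT-Sham2 has no lambda constant fragment and is not drawn in that panel.

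Variable and constant sums were of like size where immunoglobulin was abundant, and a joined, spliced transcript carries 1 variable and 1 constant region. The heavy chain ratio of variable to constant FPKM was 0.95 in WT-TAC1, 1.17 in WT-TAC2 and 1.03 in Fat1-TAC2. For kappa the ratio was 1.09, 1.09 and 1.20 in these hearts and for lambda 1.63, 1.75 and 1.64. In the other hearts the kappa ratio was 0.91 to 1.38, but the heavy chain ratio was 0.70 and 0.12 in WT-Sham, 0.39 and 0.36 in Fat1-Sham and 0.23 in Fat1-TAC1. There, Ighm and Ighg2c kept a level of a few FPKM that the heavy chain variable segments did not match.

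The light chain constant sum was 1.34 and 1.57 times the heavy chain constant sum in WT-TAC and 1.59 times in Fat1-TAC2, against 0.21 to 0.90 times in the other hearts. Jchain, the small protein that links IgM and IgA into polymers, was at 0.49 and 0.10 FPKM in WT-Sham, 67.4 and 28.7 in WT-TAC, 0.69 and 0.19 in Fat1-Sham, and 0.63 and 24.5 in Fat1-TAC. Divided by the sum of Ighm and Igha, Jchain was 0.15 in both WT-TAC hearts and 0.13 in Fat1-TAC2, and 0.013 to 0.091 in the rest. Its proportion to the polymeric isotypes was thus similar in the 3 immunoglobulin-rich hearts although Igha itself was not.

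The variable segments were detected broadly in those hearts and sparsely elsewhere. Of the 83 heavy chain segments, 81 were above 0 in WT-TAC1, 76 in WT-TAC2 and 70 in Fat1-TAC2, and of the 79 kappa segments, 79, 74 and 70. In the other libraries 8 to 21 heavy chain and 15 to 27 kappa chain segments were above 0. Of all 182 members, 162 had 3 fragments or fewer in each of the 4 sham hearts, and 78 of them were at 0 there. A level at or under 3 fragments was not separable from 0 at these depths.

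**Figure D4:**
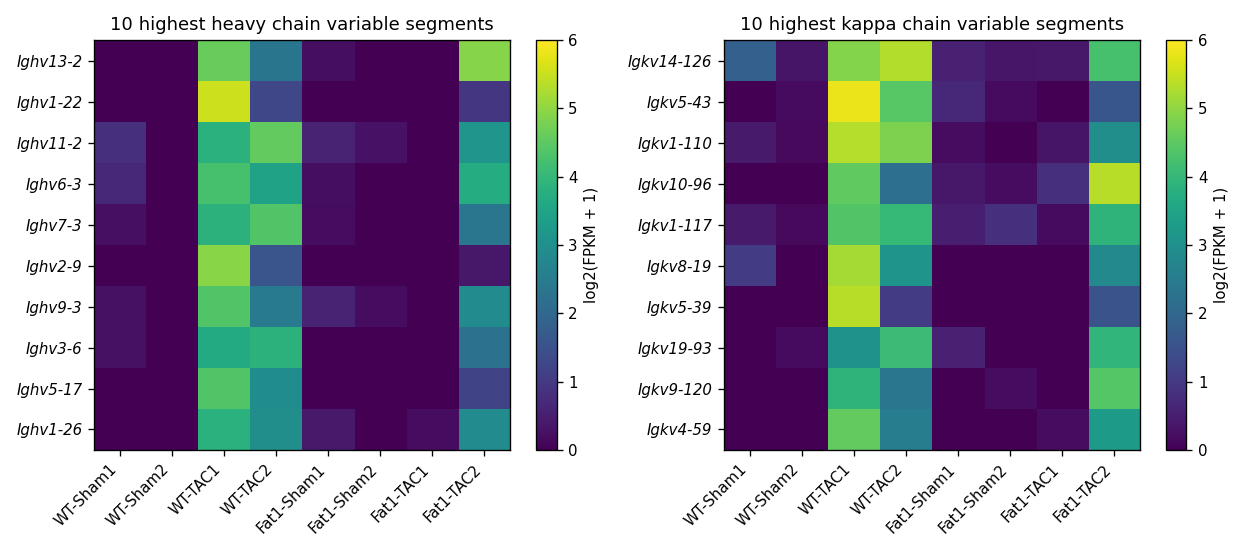
Level, as log2(FPKM + 1), of the 10 heavy chain and 10 kappa chain variable segments with the highest mean FPKM (rows) in the 8 libraries (columns). WT-TAC1, WT-TAC2 and Fat1-TAC2 are the bright columns, each with its own leading segment: Ighv1-22 and Igkv5-43, Ighv11-2 and Igkv14-126, Ighv13-2 and Igkv10-96.

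Each rich heart had its own leading segments. In WT-TAC1, Ighv1-22 took 9.11% of the heavy chain variable FPKM and Igkv5-43 7.78% of the kappa variable FPKM. In WT-TAC2, Ighv11-2 took 8.95% and Igkv14-126 11.5%. In Fat1-TAC2, Ighv13-2 took 14.4% and Igkv10-96 11.2%. Their sequences are those printed above.

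How far these segments differed between the 3 hearts varied by segment. Ighv1-22 was at 45.5 and 1.43 FPKM in WT-TAC, 0.94 in Fat1-TAC2 and 0 in the other 5. Ighv13-2 was at 23.3, 4.04 and 29.1 FPKM in WT-TAC1, WT-TAC2 and Fat1-TAC2, and at 0 to 0.17 in the others. Igkv10-96 was at 22.3, 3.57 and 40.1 FPKM in the same hearts and at 0 to 0.75 in the others. Fat1-TAC2 thus exceeded both WT-TAC hearts for Ighv13-2 and Igkv10-96, while its summed immunoglobulin FPKM was the lowest of the 3. That rank depends on scaling. After median-of-ratios scaling the sum was 1162 in Fat1-TAC2 and 1118.5 in WT-TAC2.

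Ighv11-2 and Igkv14-126 are known as the heavy and light chain segments of antibodies to phosphatidylcholine made by B-1 cells, a self-renewing B cell type rich in the body cavities. Ighv11-2 was at 0.77 and 0 FPKM in WT-Sham, 13.1 and 22.7 in WT-TAC, 0.49 and 0.22 in Fat1-Sham, and 0 and 7.77 in Fat1-TAC. Igkv14-126 was at 2.56 and 0.26 FPKM in WT-Sham, 28.7 and 38.6 in WT-TAC, 0.47 and 0.29 in Fat1-Sham, and 0.30 and 18.2 in Fat1-TAC. Both were higher in WT-TAC2 than in WT-TAC1, the reverse of the order for the summed segments. Ighv12-3 and Igkv4-91, another pair known from such antibodies, were at 1.86, 2.52 and 2.65 FPKM and at 9.44, 4.51 and 9.24 FPKM in WT-TAC1, WT-TAC2 and Fat1-TAC2.

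Further heavy chain segments split by heart in the same way. Ighv2-9 was at 29.7 FPKM in WT-TAC1, 1.999 in WT-TAC2 and 0.30 in Fat1-TAC2. Ighv7-3 was at 13.4, 19.6 and 4.12 FPKM and Ighv3-6 at 11.8, 13.5 and 3.82 FPKM in these hearts. Of the 10 highest heavy chain segments, the remaining ones (Ighv6-3, Ighv9-3, Ighv5-17 and Ighv1-26) lay at 13.2 to 19.8 FPKM in WT-TAC1, 4.6 to 10.01 in WT-TAC2 and 1.36 to 12.2 in Fat1-TAC2, and all 4 were at 0.59 FPKM or less in the other 5 libraries.

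The kappa chain segments showed the same unevenness. Igkv5-43 was at 55.8 FPKM in WT-TAC1, 20.6 in WT-TAC2 and 2.04 in Fat1-TAC2, while Igkv5-39 was at 39.6, 1.05 and 1.91 FPKM. Igkv9-120, in contrast, was highest in Fat1-TAC2 at 20.3 FPKM, with 14.0 in WT-TAC1 and 4.10 in WT-TAC2. Igkv1-110, Igkv1-117, Igkv8-19, Igkv19-93 and Igkv4-59 lay at 7.41 to 39.2 FPKM in WT-TAC1, 4.69 to 27.2 in WT-TAC2 and 6.03 to 14.5 in Fat1-TAC2.

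Summed by family, the Ighv1 segments, the largest mouse family with 41 members here, took 47.8% of the heavy chain variable FPKM in WT-TAC1, 41.6% in WT-TAC2 and 41.9% in Fat1-TAC2. The 10 highest heavy chain segments took 43.1%, 48.1% and 53.4%, and the 10 highest kappa segments 43.1%, 55.8% and 48.9%. The effective number of segments, the inverse of the summed squared shares, was 33.4, 28.8 and 21.4 for heavy chains and 34.4, 23.0 and 26.4 for kappa chains. In these 3 hearts no segment took more than 14.4% of its locus's heavy chain or kappa variable FPKM.

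Across the 83 heavy chain segments, Spearman's rho between WT-TAC1 and WT-TAC2 was 0.66, between WT-TAC1 and Fat1-TAC2 0.53 and between WT-TAC2 and Fat1-TAC2 0.43. Across the 79 kappa segments the same pairs gave 0.54, 0.63 and 0.67. These are descriptions across segments that share libraries and partly share reads. For the kappa segments the pair from 1 group, WT-TAC, had the lowest rho of the 3 pairs, and for the heavy chain segments it had the highest. Of the 10 highest heavy chain segments of each heart, 3 or 4 were shared by any pair of these hearts, and of the kappa segments 3 to 5.

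The 3 lambda variable segments, few because the mouse lambda locus is small, were led by Iglv1, at 0.54 and 0.24 FPKM in WT-Sham, 50.05 and 40.6 in WT-TAC, 0.43 and 0.52 in Fat1-Sham, and 0.41 and 9.02 in Fat1-TAC. Iglv2 was at 11.9, 15.9 and 9.26 FPKM and Iglv3 at 10.99, 1.02 and 1.012 FPKM in WT-TAC1, WT-TAC2 and Fat1-TAC2. The ratio of Iglv1 to Iglv2 was therefore 4.22 and 2.55 in WT-TAC and 0.97 in Fat1-TAC2. Iglv1 and Iglv2 (chromosome 16, minus strand, 19085017 to 19085500 and 19260401 to 19260859) are close in sequence, and the bases that differ, 5 of the last 150, are in capitals to show how few positions separate them.
Iglv1: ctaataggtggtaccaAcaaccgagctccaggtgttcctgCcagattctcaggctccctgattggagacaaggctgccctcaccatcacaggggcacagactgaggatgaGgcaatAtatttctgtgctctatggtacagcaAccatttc
Iglv2: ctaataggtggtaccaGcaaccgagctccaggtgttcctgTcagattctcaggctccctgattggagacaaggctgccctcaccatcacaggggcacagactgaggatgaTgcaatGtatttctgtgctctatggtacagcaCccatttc

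Such likeness was common among the variable segments. Of the 165, 141 shared at least 1 50-base window with another gene, and 23 shared at least 50% of their windows, with a median of 22.9%. Values of single segments are uncertain to that extent, since the counting could split reads between copies. Ighv1-62-2 and Ighv1-71, for example, were equal in all of their last 150 bases.

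The recovered lengths of the joining segments are only 37 to 41 bases, so that 1 fragment was worth 1.24 to 1.86 FPKM on a segment of 38 bases. A transcript printed here can differ from the recovered length. For each kappa joining segment, 1 annotated transcript is printed whole, with the codons for phenylalanine, glycine, any residue and glycine in capitals, the motif by which joining segments close the variable domain.
Igkj1: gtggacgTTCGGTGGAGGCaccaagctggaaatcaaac
Igkj2: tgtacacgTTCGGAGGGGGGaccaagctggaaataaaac
Igkj3: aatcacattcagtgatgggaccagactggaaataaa
Igkj4: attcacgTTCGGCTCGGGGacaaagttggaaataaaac
Igkj5: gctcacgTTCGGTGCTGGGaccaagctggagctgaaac

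Igkj3, in which the letters of this motif were not found, is known as a segment that is not used in kappa chains. The kappa joining segments held 45 and 20 fragments in WT-TAC, 21 in Fat1-TAC2 and 0 to 4 in the other libraries. Igkj5 was at 17.7, 8.35 and 4.13 FPKM and Igkj3 at 12.3, 9.03 and 4.47 FPKM in WT-TAC1, WT-TAC2 and Fat1-TAC2. In WT-TAC2, Igkj3, Igkj4 and Igkj5 had 6 fragments each, so that their order there rests on length alone. Igkj4 was the highest by mean FPKM, with 13.1 FPKM in Fat1-TAC2. Iglj1 had 1 fragment in WT-TAC1 and 1 in Fat1-TAC2. The heavy chain joining segments, which the symbols leave out, reached 15.9 FPKM (Ighj4 in WT-TAC1).

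The first comparison was WT-TAC with WT-Sham. Both WT-TAC hearts were above both WT-Sham hearts for 163 of the 182 members (89.6%), including all 11 constant genes, against 46.4% of all genes listed. With limma on log2(FPKM + 1) across all genes with at least 1 FPKM in at least 2 libraries, 35 of the 130 members that passed this filter rose and 0 fell, where a call needs more than a 1.5-fold difference and a p under 0.1 after Benjamini-Hochberg adjustment over all genes tested, against 0.921% of all 14442 genes tested that rose. The 52 members that did not pass, 51 of them variable segments and the other Ighg1, were low in most libraries. Because most members passed only through the hearts in which they were high, the count is a description.

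The 35 were 4 constant genes, 21 heavy chain, 7 kappa and 1 lambda variable segment and 2 joining segments. Ighg2b rose by 4.11 ± 0.52 (log2 fold change ± SE, n = 2 per group, adjusted p = 0.034) and Iglc1 by 4.20 ± 0.65 (adjusted p = 0.060), followed by Iglc2 (3.64 ± 0.64, adjusted p = 0.086) and Iglc3 (2.12 ± 0.38, adjusted p = 0.092). Iglv1 rose by 5.06 ± 0.78 (adjusted p = 0.060), Igkv5-43 by 5.04 ± 0.61 (adjusted p = 0.030) and Igkv1-110 by 4.78 ± 0.74 (adjusted p = 0.060). Among heavy chain segments, Ighv7-3 (log2 fold change 3.98) and Ighv5-17 (3.65) rose most, and among the rest of the 10 largest were Igkv4-68 (3.83), Igkj5 (3.72) and Iglc2. Igkv4-68 was at 0 in both WT-Sham hearts, and its WT-TAC mean was at least 34.7-fold higher than 3 fragments per library.

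The most abundant members did not pass. For Igkc the log2 fold change was 6.19 ± 1.53 (adjusted p = 0.17), for Ighm 4.80 ± 1.20 (adjusted p = 0.17), for Igha 5.39 ± 1.08 (adjusted p = 0.12) and for Ighg3 2.87 ± 0.62 (adjusted p = 0.14), in each with both WT-TAC hearts above both WT-Sham hearts. The SE pools the spread of all 4 groups, and the Fat1-TAC hearts lay far apart for these genes. Ighg2c (1.16 ± 0.29, adjusted p = 0.17) and Ighd (0.88 ± 0.35, adjusted p = 0.18) did not pass either. Over the 130 members the median log2 difference was 2.54, beside 0.39 over all 14442 genes. Median-of-ratios scaling brought these medians to 2.32 (123 members tested) and -0.017 and left 6 members called, beside 23 of all genes.

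Sizes were also taken without single hearts. Where 1 heart was left in a group, it was taken to vary like the others, so only sizes are given for such fits. The median log2 difference over the members was 2.60 without WT-Sham1 (0.30 over all genes) and 2.51 without WT-Sham2 (0.48). It was 2.07 without WT-TAC1, the heart with the T cell genes (0.21 over all genes), and 2.99 without WT-TAC2 (0.54).

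In Fat1-TAC against Fat1-Sham no member passed the test in limma, in limma-voom on the recovered fragments or in the test without moderation, and 6 members were higher at an unadjusted p under 0.05 in limma, beside 192 of all 14442 genes tested. After adjustment 0.00692% of all genes tested rose. Both Fat1-TAC hearts were above both Fat1-Sham hearts for 22 of the 182 members (12.1%), against 22.7% of all genes. Fat1-TAC2 alone was above both Fat1-Sham hearts for 158 members, and Fat1-TAC1 for 25. For single hearts no share of all genes is set beside these counts, so they only describe the gap between the Fat1-TAC hearts. For Ighm the log2 difference was 2.43 ± 1.20 and for Igkc 2.91 ± 1.53, both with an adjusted p of 1. Without Fat1-TAC1 the median difference over the members was 1.87, and without Fat1-TAC2 it was 0.

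In Fat1-TAC against WT-TAC, which shares its WT-TAC hearts with the first comparison, 17 members fell and 0 rose, against 1.39% of all 14442 genes that fell. Both Fat1-TAC hearts were below both WT-TAC hearts for 102 of the 182 members (56.0%), against 48.7% of all genes, so this share lay close to the background. The 17 were 1 constant gene, 12 heavy chain and 4 kappa variable segments. All 17 were among the 35 that rose in WT-TAC against WT-Sham. Because most members passed the filter only through the hearts in which they were high, this count, too, is a description. Igkv5-43 fell by 4.33 ± 0.61 on the log2 scale (adjusted p = 0.049), from 55.8 and 20.6 FPKM in WT-TAC to 0 and 2.04 in Fat1-TAC. Ighg2b fell by 3.63 ± 0.52 (adjusted p = 0.049), from 28.8 and 10.6 FPKM to 0 and 1.26.

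The other segments that fell were low in both Fat1-TAC hearts. Ighv5-17 (log2 fold change -3.03), Ighv1-50 (-2.80), Ighv8-12 (-2.53), Igkv6-23 (-2.42), Ighv1-76 (-2.26), Ighv14-2 (-2.20), Ighv14-4 (-2.07) and Igkv9-124 (-2.04) completed the 10 largest. Ighv14-4 was at 2.36 and 4.23 FPKM in WT-TAC and at 0 in both Fat1-TAC hearts. Over the 17, the highest level in Fat1-TAC2 was 2.04 FPKM. The most abundant constant genes did not pass: the log2 difference was -2.59 ± 1.20 for Ighm (adjusted p = 0.18), -3.33 ± 1.53 for Igkc (adjusted p = 0.18) and -4.20 ± 1.08 for Igha (adjusted p = 0.14).

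Here, too, sizes were taken without single hearts. For fits with 1 heart left in a group only sizes are given. Without Fat1-TAC1 the median log2 difference over the members was -0.59 (-0.37 over all genes), and without Fat1-TAC2 it was -2.49 (-0.44). Without WT-TAC1 it was -1.15 (-0.20 over all genes), and without WT-TAC2 it was -1.92 (-0.57). With all libraries it was -1.65 over the 130 members tested, beside -0.40 over all genes. Median-of-ratios scaling brought these medians to -1.39 (123 members tested) and -0.002 and left 0 members called lower, beside 19 of all genes.

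Between the sham groups no difference among the members was detected. In Fat1-Sham against WT-Sham no member passed in limma, in limma-voom or in the test without moderation, and 1 was higher at an unadjusted p under 0.05 in limma, beside 29 of all 14442 genes tested. After adjustment 0% of all genes rose. The median log2 difference over the members was 0. For Ighm it was -0.21 ± 1.20 and for Igkc -0.05 ± 1.53, SEs that leave wide room in either direction. The interaction of genotype and surgery asks whether TAC changed the genes differently in the 2 genotypes. It called 0 members in limma and in limma-voom and 2 lower without moderation (13 of all genes). In limma 43 members were lower at an unadjusted p under 0.05, beside 921 of all 14442 genes tested. After adjustment 0.0623% of all genes were called lower.

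Genes of antibody-making cells were followed as lists. Of 18 B cell genes, 16 were tested and 0 passed in WT-TAC against WT-Sham, with a median log2 difference of 1.14. Cd79a, which signals from the antigen receptor, was at 4.57 and 4.70 FPKM in WT-TAC, 3.71 in Fat1-TAC2 and 0.49 to 1.0 elsewhere. Ms4a1 (CD20) was at 1.49 and 1.83 FPKM in WT-TAC, 1.30 in Fat1-TAC2 and 0.098 to 0.39 elsewhere. Both genes were thus higher in the same 3 hearts, but the ratio of Igkc to Cd79a was 144, 65.8 and 80.7 there against 4.87 to 12.4 in the other hearts, so that light chain RNA differed far more than this B cell gene. Cd37 and Ly6d, at 59.5 and 124 FPKM, made up most of the B cell sum in WT-TAC1, the heart with the T cell genes.

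Of 18 plasma cell genes, 16 were tested, 0 passed in WT-TAC against WT-Sham and Sdc1 alone fell in Fat1-TAC against WT-TAC (log2 fold change -1.53 ± 0.27, adjusted p = 0.078). Jchain had a log2 difference of 5.14 ± 1.13 (adjusted p = 0.14) in WT-TAC against WT-Sham. Mzb1, a chaperone of IgM assembly, was at 1.79 and 1.61 FPKM in WT-Sham, 6.74 and 3.69 in WT-TAC, 1.37 and 1.86 in Fat1-Sham, and 0.53 and 2.98 in Fat1-TAC. Sdc1 (CD138), also made by epithelium, was at 20.1 and 15.3 FPKM in WT-TAC and at 4.91 to 9.87 elsewhere, with 6.00 in Fat1-TAC2. Pou2af1, a co-activator of immunoglobulin transcription, was at 3.80 and 2.40 FPKM in WT-TAC, 1.39 in Fat1-TAC2 and 0.097 to 0.43 elsewhere. Xbp1, Txndc5 and the other secretory genes of the list were expressed in every heart, Xbp1 at 29.7 to 89.1 FPKM.

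Of 9 listed genes of antibody gene assembly and switching, 5 were tested, and 1, Vpreb3, rose in WT-TAC against WT-Sham (1.79 ± 0.23, adjusted p = 0.034) and fell in Fat1-TAC against WT-TAC (-1.72 ± 0.23, adjusted p = 0.039). Rag1, which cuts the segments for joining, was at 252 FPKM in WT-TAC1, 0.059 in WT-TAC2 and 0 in the other 6, and thymocytes use it too. In 11 genes of antibody transport and Fc receptors, 8 were tested and Pigr alone changed, rising by 3.02 ± 0.31 in WT-TAC against WT-Sham (adjusted p = 0.020) and falling by 3.02 ± 0.31 in Fat1-TAC against WT-TAC (adjusted p = 0.018). Fcgrt, the neonatal Fc receptor and the highest of that list, was at 70.1 to 99.9 FPKM in all hearts.

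Of 14 listed genes of plasma cell homing and survival, 7 were tested and 0 passed in any comparison. Cxcl13, the chemokine that draws B cells, was at 1.35 and 0.45 FPKM in WT-Sham, 10.6 and 9.73 in WT-TAC, 4.35 and 0.31 in Fat1-Sham, and 0.23 and 5.70 in Fat1-TAC, an order close to that of the immunoglobulin genes. Its log2 difference in WT-TAC against WT-Sham was 2.59 ± 0.88 (adjusted p = 0.17). Ccl25 and Ccr9, a thymic and gut chemokine and its receptor, were at 142 and 76.9 FPKM in WT-TAC1 and at 4.39 or less elsewhere. Cxcl12 was the highest of the list in most hearts, at 56.0 to 87.6 FPKM.

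**Figure D5:**
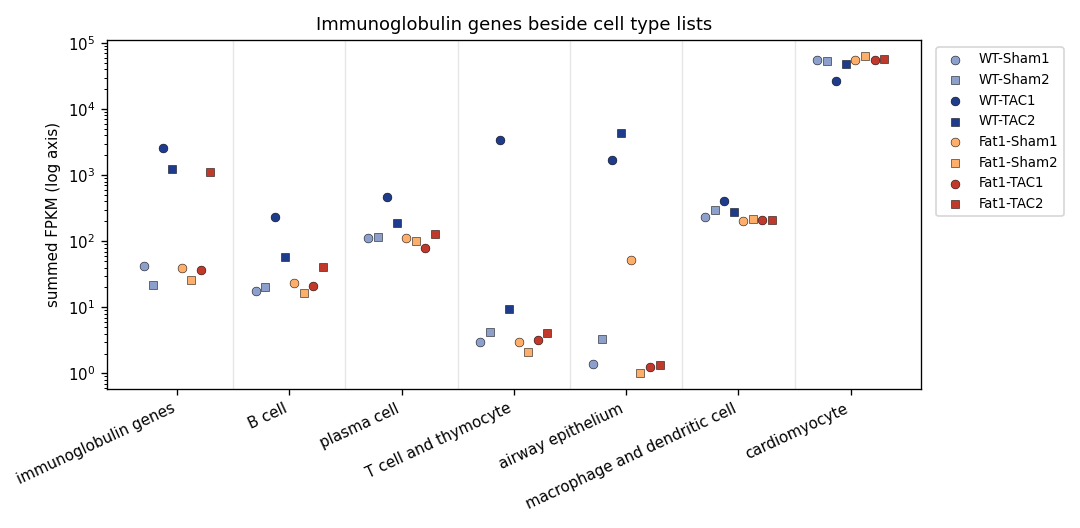
Summed FPKM (log axis) of the 182 immunoglobulin genes and of 6 cell type lists, with 1 point per library coloured by group (circle, replicate 1; square, replicate 2). Fat1-TAC2 is as high as WT-TAC2 for immunoglobulin genes but at the sham level for airway epithelium (1.34 FPKM), and T cell genes are high in WT-TAC1 alone.

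Airway epithelium genes, like the immunoglobulin genes, were high in both WT-TAC hearts, but they stayed low in Fat1-TAC2. Between the WT-TAC hearts the order was opposite. The airway sum was larger in WT-TAC2 (4296 against 1690 FPKM), and the immunoglobulin sum was larger in WT-TAC1 (2573 against 1236 FPKM). Of 13 airway epithelium genes, 10 rose in WT-TAC against WT-Sham and 10 fell in Fat1-TAC against WT-TAC. Scgb1a1, the club cell secretory protein, was at 707 and 1555 FPKM in WT-TAC, 33.1 in Fat1-Sham1, 0 in Fat1-TAC2 and 0.099 to 0.45 in the rest, and Bpifa1 was at 600 and 1968 FPKM in WT-TAC, 10.6 in Fat1-Sham1, 0 in Fat1-TAC2 and 0.058 to 0.44 in the rest. In Fat1-TAC2, 7 of the 13 airway genes were at 0 and their sum was 1.34 FPKM, while its immunoglobulin genes summed to 1119 FPKM. Fat1-Sham1, the sham heart with 51.9 FPKM of airway genes, had immunoglobulin genes at 39.9 FPKM, beside 21.5 to 42.8 FPKM in the other sham hearts. How far airway or other tissue adds to the immunoglobulin RNA of the WT-TAC hearts was not tested.

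T cell and thymocyte genes were high in WT-TAC1. All 12 were above 3 fragments there, with Cd3e at 87.8 FPKM against 0 to 0.23 FPKM in the other 7 libraries. Of the 4 tested, 0 passed in WT-TAC against WT-Sham. WT-TAC2, with a T cell sum of 9.42 FPKM, and Fat1-TAC2, with 4.03 FPKM, held immunoglobulin sums of 1236 and 1119 FPKM, with T cell sums in the sham hearts of 2.12 to 4.22 FPKM. Sftpc, the surfactant gene of alveolar cells, was at 74.7 FPKM in WT-TAC1, 29.9 in Fat1-Sham1 and 0.14 or less in the rest, and of 7 alveolar genes tested 2 (Aqp5 and Sftpd) rose in WT-TAC against WT-Sham and fell in Fat1-TAC against WT-TAC. Of 8 macrophage and dendritic cell genes and 10 heart muscle genes tested, 0 passed in either comparison, with Myh6 at 7406 FPKM in WT-TAC1 and 12114 to 17694 in the others and Tnnt2 at 3061 and 5268 to 5895.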

How the data were processed

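The authors sequenced RNA of 8 ventricular samples and deposited 1 table of FPKM per gene and library; HISAT2 and the builds mm10 and GRCm38 are named in the submitters' processing notes, and the tool that made the deposited FPKM values is not given in the sources used here. Libraries were grouped by their titles. Ensembl identifiers were paired with symbols for 25852 of 25929 genes.

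From the FPKM, whole fragments were recovered for 25928 of 25929 genes at a relative tolerance of 1e-08, giving 14163994 to 21218331 fragments per library. For 10930 genes the length was that of an annotated transcript or the median over the gene's annotated transcripts. As a check, the FPKM of 3000 genes above 0 in all libraries were moved slightly at random, and 1 gene came out whole. Genes above 0 in only some libraries were not part of this check. Intervals and the floor of 3 fragments cover counting error only.

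Differences were tested with limma 3.58.1 in R 4.3.3 (log2(FPKM + 1), group means, trend) on 14442 genes with at least 1 FPKM in at least 2 libraries, and called by the study's cutoffs, a fold over 1.5 and p under 0.1 after Benjamini-Hochberg adjustment. Fold changes on this scale understate those of low genes. Scripts were tested on simulated data. Alternatives were another pseudocount, filters, scalings, a per-gene test, a replicate block, limma-voom on recovered fragments and leaving out each library.

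Members and gene lists were chosen with earlier results of these data known. Named were all constant genes, the 10 highest heavy and 10 highest kappa variable segments, every lambda variable segment, the 10 called members with the largest change per comparison, and listed genes that were highest or defining or, outside the airway list, called; Igkv4-91, Ighv12-3, Igkv5-45, Ighv1-62-2 and Ighv1-71 were named after their values were seen, as were Myh7, Nppa, Nppb and other listed genes. Of the lists, Rag2, Vpreb2, Igll1, Ccl19 and Madcam1 were not found under these symbols. Results for some listed genes are not reported here.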

Additional observations from a re-analysis of the deposited data

How the results depend on the processing

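The count of members that rose in WT-TAC against WT-Sham was 35, beside 133 of all genes tested. It was 6 (33 of all genes) with a pseudocount of 0.1. With a mean of at least 5 FPKM, where 18 members were tested, it was 0 (9). It was 6 (23) with median-of-ratios scaling and 3 (16) with quantile normalization. Testing only the groups compared gave 55 (97), the test per gene without moderation 3 (30) and limma-voom 0 (6). The count that fell in Fat1-TAC against WT-TAC was 17, beside 201 of all genes tested. It was 0 (31 of all genes) with a pseudocount of 0.1 and 0 (14) with a mean of at least 5 FPKM. It was 0 (19) with median-of-ratios scaling and 0 (13) with quantile normalization. Testing only the groups compared gave 0 (40), the test per gene 3 (30) and limma-voom 4 (106). The interaction (0) called 3 members lower without the filter (63 of all genes) and 2 per gene (13). The cause was not tested. Leaving out 1 library gave 0 to 116 members in the first comparison, 0 to 81 in the second, 0 to 5 in Fat1-TAC against Fat1-Sham and 0 to 59 in the interaction. Each of these fits left 1 heart in a group, so the counts cannot show whether the members differ from other genes. For the interaction, the median log2 difference over the members was -1.66 with all libraries (-0.37 over all genes). It was -1.94 without WT-TAC2 (-0.53 over all genes) and -1.22 without WT-TAC1 (-0.19). Without Fat1-TAC2 it was -2.52 (-0.40 over all genes), and without Fat1-TAC1 it was -0.66 (-0.34).

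Same-numbered samples did not deviate together (correlations of deviations from the group means, -0.14 to 0.024), so the number was not used as a pairing. Whether they share a batch was not tested. With the replicate block, 12 members rose in WT-TAC against WT-Sham, beside 52 of all genes. In Fat1-TAC against WT-TAC 4 members fell with it, beside 51 of all genes.

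From fragments instead of FPKM, the Ighm share was 67.3% in WT-Sham, the Igha share 3.47% in Fat1-Sham and 2.40% in Fat1-TAC, the Ighg2b share 5.82% in WT-TAC, the Ighg2c share 24.4% in WT-Sham and 25.5% in Fat1-Sham, and the kappa share 86.1% in Fat1-Sham, each beyond 1 SD of its group, as gene lengths are no longer divided out. Of the named genes, only the constant genes and Jchain were followed singly under the alternatives for the calls, not the variable or joining segments. Of their values, 648 kept their side of the threshold, whether called or not, 52 no longer passed, 32 newly passed and 0 reversed. With 2 hearts per group, the depth limits the sham values, where most members had 3 fragments or fewer.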
